A study of Mus musculus with 9 samples.

Results

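The genes described here are 40 genes of mitosis and the G2/M step of the cell cycle, given as a list of gene symbols that was drawn up with earlier results of these arrays known. Of the 40, 39 had a probe set with their symbol in the array annotation used here, and all 39 were bright enough to be tested, among 12828 genes in all. The exception was Ccnb1, the gene of cyclin B1, for which no probe set was found under that symbol. The 39 genes were followed in mouse pre-B cells, the stage of B cell development between pro-B cells and immature B cells.

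All 9 samples carried null alleles of Irf4 and Irf8, a pair of transcription factors that act in B cell development. In 3 samples the cells were grown with 5 ng of IL-7 (high IL-7), in 3 with 0.25 ng (low IL-7), and in 3 IRF4 was put back and the cells were grown with 5 ng. The labels disagree on the volume that these amounts refer to. They name no group handled in the same way without IRF4, so IRF4 and the means of putting it back cannot be told apart. They also do not say whether the 3 replicates of a group were separate cultures, so the p-values below measure the spread between these samples, which may be technical. RNA came from whole cultures, so a change in the share of cells in mitosis and a change in RNA per dividing cell cannot be told apart.

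Transcripts of these genes build up as a cell passes through G2 and are needed to enter mitosis, attach chromosomes to the spindle, separate them and divide the cell. Many of their promoters carry a cell cycle genes homology region (CHR), an element near the start of the gene that is bound by the MuvB complex. With the pocket proteins p107 or p130 and E2F4, MuvB keeps such genes off in resting cells, and with B-Myb and FOXM1 it switches them on in G2. CCAAT boxes upstream, bound by NF-Y, are common in the same promoters. IL-7 is the main growth factor of pro-B and pre-B cells, and loss of its signal is known to favour exit from the cycle and rearrangement of the light chain genes.

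Promoter windows were found in the RefSeq table (GRCm38.p6) for 33 of the 40 genes, 35 windows in all, since Ect2 and Prc1 have a pair of overlapping windows each. Every window ran from 250 bases before to 50 bases after the RefSeq start, 300 bases in all. The 5 windows below belong to the genes with a single window that had the smallest and the largest p-values in low against high IL-7, and they are shown so that the promoters of the genes that moved most clearly can be read beside those that did not pass the test. Ccnb2 (chr9:70421505-70421804, minus strand), Nusap1 (chr2:119618048-119618347, plus strand) and Cenpf (chr1:189688037-189688336, minus strand) rose in low IL-7. Cks2 (chr13:51644982-51645281, plus strand) and Plk1 (chr7:122159185-122159484, plus strand) did not pass the test. Sequences run 5′ to 3′ along the gene's own strand, and capitals mark the letters TTTGAA or TTCGAA (the CHR) and CCAAT, or the same motif read from the opposite strand (ATTGG for CCAAT).
Ccnb2: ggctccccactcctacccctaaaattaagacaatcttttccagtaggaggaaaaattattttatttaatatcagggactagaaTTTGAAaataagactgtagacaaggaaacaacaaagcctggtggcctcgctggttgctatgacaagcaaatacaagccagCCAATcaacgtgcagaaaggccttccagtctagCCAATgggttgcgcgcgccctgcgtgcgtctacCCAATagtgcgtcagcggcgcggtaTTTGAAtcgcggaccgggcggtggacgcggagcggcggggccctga
Nusap1: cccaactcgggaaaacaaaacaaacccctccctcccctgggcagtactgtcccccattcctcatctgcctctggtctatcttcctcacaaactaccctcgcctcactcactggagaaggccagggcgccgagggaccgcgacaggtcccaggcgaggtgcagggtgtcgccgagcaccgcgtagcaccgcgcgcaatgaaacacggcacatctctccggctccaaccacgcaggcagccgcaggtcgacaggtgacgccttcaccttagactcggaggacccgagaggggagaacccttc
Cenpf: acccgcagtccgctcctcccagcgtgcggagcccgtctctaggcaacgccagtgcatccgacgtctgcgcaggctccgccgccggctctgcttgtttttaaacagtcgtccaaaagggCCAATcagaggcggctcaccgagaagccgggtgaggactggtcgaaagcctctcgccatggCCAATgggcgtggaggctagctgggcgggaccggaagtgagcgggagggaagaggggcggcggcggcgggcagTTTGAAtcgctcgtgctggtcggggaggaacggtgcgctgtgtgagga
Cks2: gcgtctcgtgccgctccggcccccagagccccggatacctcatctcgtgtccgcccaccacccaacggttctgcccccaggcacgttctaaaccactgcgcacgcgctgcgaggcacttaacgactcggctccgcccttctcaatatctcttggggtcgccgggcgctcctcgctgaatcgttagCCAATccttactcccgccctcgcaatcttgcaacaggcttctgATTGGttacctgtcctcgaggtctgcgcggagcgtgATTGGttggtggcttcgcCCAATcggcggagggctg
Plk1: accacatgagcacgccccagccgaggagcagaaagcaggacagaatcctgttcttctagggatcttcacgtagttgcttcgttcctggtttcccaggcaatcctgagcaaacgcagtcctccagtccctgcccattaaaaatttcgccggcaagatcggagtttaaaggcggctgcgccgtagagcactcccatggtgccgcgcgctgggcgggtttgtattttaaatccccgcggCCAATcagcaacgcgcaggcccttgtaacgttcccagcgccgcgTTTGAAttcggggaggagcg

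The Ccnb2 window held 3 CCAAT boxes, at 87, 54 and 21 bases before the start, followed by TTTGAA 5 bases after it, and a further TTTGAA lay 167 bases before the start. The Cenpf window held CCAAT at 132 and 71 bases before the start and TTTGAA 3 bases after it. The Plk1 window had the same order, with CCAAT at 14 bases before and TTTGAA at 31 bases after the start, although Plk1 did not pass the test. Cks2 had 4 CCAAT boxes, 2 of them on the opposite strand, and no CHR. The Nusap1 window, of a gene with one of the smallest p-values, held neither motif.

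Read on both strands, the CHR letters were in 27 of the 35 windows (77.1%), against 19.2% of the 32851 mouse promoter windows in the table and 14.0% of the 13231 windows of genes tested on these arrays. CCAAT was in 28 of the 35 windows (80%), against 37.4% of all windows and 37.3% of those of tested genes. Both motifs stood together in 25 windows (71.4%), against 7.52% and 5.57%. The motifs were also common in 68 windows of other mitosis genes, from a longer list described below. There the CHR letters were in 58.8% of windows, CCAAT in 67.6% and both in 42.6%. The median GC content was 59% in the windows of the mitosis genes and 60.3% in those of tested genes.

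The CHR matches lay close to the start, with a median position of 3 bases after it, and 29 of the 37 matches, overlapping windows included, fell between 100 bases before and 50 bases after. The CCAAT matches lay further upstream, with a median of 65 bases before the start. The 25 measured genes with a CHR match had a median log2 difference of 0.57 (low IL-7 minus high IL-7), and the 7 without one had 0.52. For CCAAT the medians were 0.48 over the 25 genes with a match and 0.67 over the 7 without. These are descriptions of the letters in 1 window per start, and binding was not measured.

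**Figure D1:**
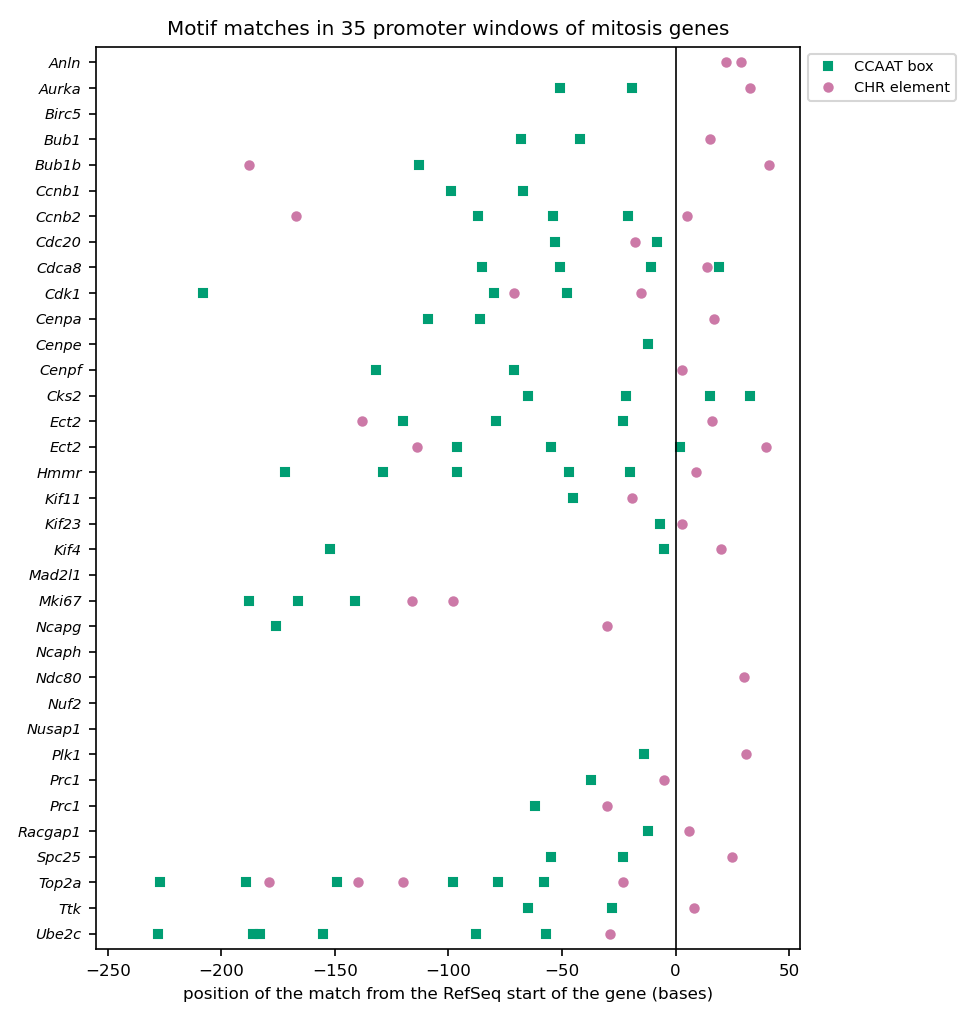
Positions of the first base of each CCAAT box (squares) and CHR element (circles) in the 35 promoter windows, 1 line per window, in bases from the RefSeq start (vertical line). CHR matches gather around the start, with a median position of 3 bases after it, and CCAAT matches upstream of it, with a median of 65 bases before.

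Levels are given as the deposited linear intensity of 1 probe set per gene, the one with the highest mean over the 9 arrays, and differences as differences of log2(intensity + 16) with their standard error (SE). Folds are on that same scale. A gene is said to have risen or fallen where the Benjamini-Hochberg adjusted p of limma's moderated test, over all 12828 genes, was under 0.05. Intensities of different genes are not compared, since each probe set has its own response. The 9 array medians lay between 139.7 and 151.2. They were 139.7 to 151.1 with high IL-7, 145.4 to 151.2 with low IL-7 and 140.9 to 142.3 with IRF4.

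Some arrays and markers stood apart. The 18S control signal was 6.70 (log2) on replicate 1 of high IL-7 and on replicate 3 of IRF4 and 7.76 to 8.51 on the other 7 arrays, so results were also computed without these 2 arrays. The pre-B markers Cd79a, Cd79b, Vpreb1 and Igll1, parts of the pre-B cell receptor, were at 4199 units or more on every array. Of 8 pre-B markers 5 rose in low IL-7, Rag1 and Rag2 among them. Of the 2 Irf4 probe sets, the dimmer one read 202.3 to 381.2 units with high IL-7, 256.9 to 315.9 with low IL-7 and 1088 to 2543 with IRF4, and the brighter one fell by 0.40 with IRF4. The sources used here do not say which part of Irf4 the null allele removes, so signal in the null groups checks nothing. Markers of stromal cells varied widely between arrays: the mean of 19 of them was 8.18 to 9.93 with high IL-7, 7.39 to 8.26 with low IL-7 and 7.60 to 9.38 with IRF4 (log2), and their summed level was 7984 to 35390, 4162 to 9009 and 4620 to 23715 units. Of the 16 that were tested 5 fell in low IL-7, and all 16 differences were below 0. Dcn and Lum stayed at 90 units or less on every array, under the filter of 108.0 units, but other stromal markers were bright. Cxcl12 averaged 3991 units with high IL-7, 1025 with low IL-7 and 1635 with IRF4, and Col1a2 averaged 3856, 1062 and 1694. The mean of 11 myeloid markers was 7.27 to 7.43 with high IL-7, 7.50 to 7.63 with low IL-7 and 7.21 to 7.38 with IRF4, and their summed level was 2309 to 2780, 3084 to 3180 and 3459 to 3985 units. Of the 7 that were tested, Fcer1g (1.49) and Itgam (2.01) rose in low IL-7 and Ctss (-0.72) fell. Itgam averaged 43.6 units with high IL-7, 227.4 with low IL-7 and 58.8 with IRF4. It thus passed the filter only through the low IL-7 arrays, and its call carries no weight. With IRF4, Ctss (1.29) rose and Fcer1g (-1.40) fell. Mpo, Elane, S100a8 and S100a9 were under the filter on every array. Of 4 tested T cell markers none rose and 1 fell, and the 1 tested erythroid marker did not pass. The part of these markers in the results below was not tested.

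In low IL-7 the mitosis genes rose together by modest amounts. Of the 39 genes 33 rose and none fell, while 17.8% of all tested genes rose and 19.6% fell. The median log2 difference (low IL-7 minus high IL-7) was 0.48, a fold of 1.39, against 0.02 over all tested genes. All 39 differences were above 0, as were 52.7% of all tested genes, and they ran from 0.04 for Aurkb to 0.93 for Cenpf, so that none reached 2-fold. In 37 of the 39 genes the lowest low IL-7 array lay above the highest high IL-7 array, as it did in 25.5% of all tested genes.

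**Figure D2:**
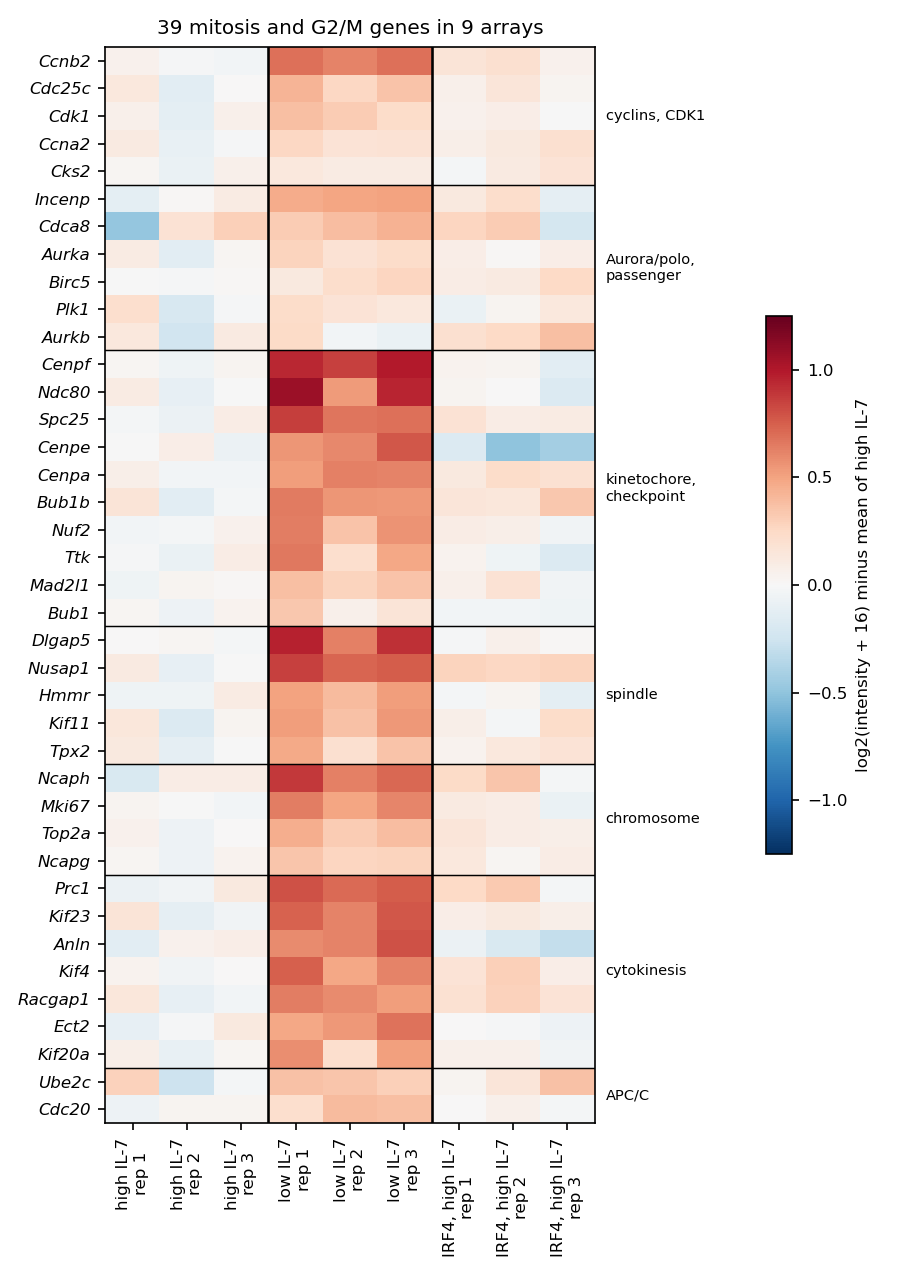
Heat map of log2(intensity + 16) minus the mean of the 3 high IL-7 arrays for each of the 39 genes (rows, by role) in the 9 arrays (columns). The 3 low IL-7 columns are red in nearly every row, up to about 1 in Cenpf, Ndc80 and Dlgap5. The IRF4 columns stay nearer 0 in most rows, with mean differences from -0.36 in Cenpe to 0.28 in Aurkb.

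The mean of the 39 genes (log2) was 11.33, 11.25 and 11.34 in high IL-7 replicates 1, 2 and 3, and 11.84, 11.72 and 11.81 in low IL-7. With IRF4 it was 11.39, 11.41 and 11.34. The low IL-7 arrays lay above all others by more than the whole range within any group. The stromal means, in the same order, were 8.18, 9.93 and 9.26 with high IL-7, 7.39, 8.26 and 8.01 with low IL-7, and 9.38, 7.60 and 7.92 with IRF4, and their part in the mitosis means was not tested.

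Kinetochore and checkpoint genes tie chromosomes to spindle fibres and delay anaphase until all are attached. Of 10 such genes 9 rose in low IL-7, with a median of 0.59. Cenpf, a large kinetochore protein that builds up in G2, read 1922, 1816 and 1934 units with high IL-7, 3659, 3427 and 3782 with low IL-7, and 1950, 1937 and 1723 with IRF4. Every low IL-7 array thus stood far above the other 6, and the fold was 1.91 (log2 0.93, SE 0.08, limma adjusted p = 7.01e-06). Ndc80, which with Nuf2 and Spc25 forms the complex that grips the microtubule, read 1012, 873 and 935 units with high IL-7, 1981, 1360 and 1836 with low IL-7, and 960, 944 and 832 with IRF4.

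The low IL-7 arrays of Ndc80 did not overlap the others but spread widely, with replicate 2 lowest, and the log2 difference was 0.85 (SE 0.14). Its partners Spc25 (0.74) and Nuf2 (0.52) rose as well. Cenpa, the histone that marks the centromere, read 3859, 3572 and 3584 units with high IL-7, 5263, 5693 and 5666 with low IL-7, and 3986, 4319 and 4180 with IRF4, a rise of 0.59 in low IL-7. Among checkpoint genes Bub1b (0.58), the kinase Ttk (0.45) and Mad2l1 (0.34) rose. Bub1, a checkpoint kinase, differed by 0.19 (SE 0.08, limma adjusted p = 0.0838) and did not pass. It passed in 3 of 22 alternatives: quantile normalization, array weights and without replicate 2 of low IL-7 (adjusted p = 0.0402).

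Genes of the central spindle and of cytokinesis, the physical splitting of the cell, all rose, 7 of 7 with a median of 0.61. Prc1, which bundles microtubules between the separating chromosomes, read 1576, 1601 and 1798 units with high IL-7, 2876, 2712 and 2814 with low IL-7, and 1973, 2078 and 1626 with IRF4. The motor Kif23 read 3029, 2506 and 2623 units with high IL-7, 4526, 4182 and 4644 with low IL-7, and 2862, 2948 and 2843 with IRF4. In both genes the 3 low IL-7 arrays lay above the other 6, with log2 differences of 0.75 (SE 0.10) and 0.71 (SE 0.08). Anln, an actin binding protein of the cleavage furrow, rose by 0.67, and the motors Kif4 by 0.61 and Kif20a by 0.43. Racgap1 (0.58) and Ect2 (0.57), which activate RhoA at the cleavage site, also rose.

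All 5 spindle genes rose, with a median of 0.48. Dlgap5, which stabilises spindle fibres, read 1235, 1250 and 1207 units with high IL-7, 2416, 1914 and 2336 with low IL-7, and 1222, 1291 and 1245 with IRF4. Nusap1, which bundles microtubules around chromosomes, read 4342, 3742 and 3995 units with high IL-7, 7280, 6682 and 6812 with low IL-7, and 4874, 4797 and 4889 with IRF4. The log2 differences in low IL-7 were 0.84 (SE 0.09) and 0.78 (SE 0.06). In Nusap1 the 3 IRF4 arrays also lay above the 3 high IL-7 arrays, by less. Hmmr and the motor Kif11 rose by 0.48 each and Tpx2, an activator of Aurora A, by 0.34. The Tpx2 call was lost without replicate 2 of high IL-7 (limma adjusted p = 0.0632), and that of Hmmr with its second probe set.

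The 4 genes of mitotic chromosome structure rose, with a median of 0.48. Mki67, the source of the Ki-67 antigen that coats mitotic chromosomes and is widely used as a mark of dividing cells, read 6862, 6655 and 6534 units with high IL-7, 10423, 9440 and 10187 with low IL-7, and 7233, 7124 and 6303 with IRF4. Top2a, the topoisomerase that untangles sister DNA, read 9428, 8691 and 9138 units with high IL-7, 12419, 11321 and 11836 with low IL-7, and 10064, 9709 and 9550 with IRF4. The low IL-7 arrays of both genes lay above the other 6, and the log2 differences were 0.58 (SE 0.06) for Mki67 and 0.38 (SE 0.05) for Top2a. The condensin subunit Ncaph read 2005, 2450 and 2443 units with high IL-7, 4240, 3546 and 3785 with low IL-7, and 2714, 2909 and 2244 with IRF4. The low Ncaph values of replicate 1 in high IL-7 and replicate 3 with IRF4 were on the 2 arrays with a low 18S signal, and without these arrays its log2 difference in low IL-7 moved from 0.74 to 0.65. The other condensin subunit, Ncapg, rose by 0.30, but did not pass with its second probe set (0.18).

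The cyclins and the enzymes that act on CDK1, the kinase that drives entry into mitosis, moved unevenly. Of 5 measured genes 4 rose, with a median of 0.31. Ccnb2, the gene of cyclin B2, read 5267, 5027 and 4977 units with high IL-7, 8222, 7849 and 8208 with low IL-7, and 5677, 5848 and 5272 with IRF4. Its replicates were close, and the rise of 0.67 (SE 0.05) had the smallest p of the list (limma adjusted p = 6.14e-06). Cdk1 itself read 6361, 5604 and 6376 units with high IL-7, 7917, 7597 and 7164 with low IL-7, and 6318, 6455 and 6098 with IRF4, a smaller rise of 0.31 (SE 0.06).

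Cdc25c, a phosphatase that activates CDK1, rose by 0.35 and Ccna2, the gene of cyclin A2, by 0.21 (SE 0.06). A second Ccna2 probe set, nearly as bright, gave a larger rise of 0.51 (limma adjusted p = 1.83e-05 over all probe sets). The call for Cdc25c was lost without replicate 2 of high IL-7 (limma adjusted p = 0.0638) and with its second probe set. That for Ccna2 was lost without replicate 2 or 3 of high IL-7 or replicate 1 of low IL-7 (up to 0.0885). Cks2, a small partner of CDK1, read 7103, 6558 and 7260 units with high IL-7, 7656, 7479 and 7457 with low IL-7, and 6865, 7551 and 7859 with IRF4. Its low IL-7 arrays lay above the high IL-7 arrays but overlapped those with IRF4, and the difference of 0.11 did not pass (limma adjusted p = 0.171).

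Of the mitotic kinases and the chromosomal passenger complex, 3 of 6 genes rose, with a median of 0.22. Differences between the role groups were not tested. Aurkb, the Aurora B kinase at the core of the passenger complex, read 2158, 1667 and 2131 units with high IL-7, 2324, 1929 and 1864 with low IL-7, and 2269, 2349 and 2564 with IRF4. The high and low IL-7 arrays overlapped and differed by 0.04 (SE 0.12, limma adjusted p = 0.822, 95% interval -0.22 to 0.31). Both Aurkb probe sets carry suffixes that mark probes able to match other transcripts. In the mitosis list, the main probe sets of Cdc20, Cdca8, Incenp, Ncaph and Prc1 carry such suffixes as well. Plk1, the polo kinase of mitotic entry, read 3517, 2648 and 3010 units with high IL-7, 3556, 3427 and 3339 with low IL-7, and 2864, 3113 and 3335 with IRF4, and the groups overlapped (0.18, limma adjusted p = 0.199). Without replicate 1 of high IL-7, Plk1 passed (0.28, adjusted p = 0.0322).

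Incenp, the scaffold of the passenger complex, rose by 0.49 (SE 0.09), though not with its second probe set. Birc5, the gene of survivin in the same complex, rose by 0.21, and Aurka, the spindle pole kinase, by 0.23 with an adjusted p of 0.0498 in limma that lay just under the threshold. The Birc5 call was lost without any 1 high IL-7 array or replicate 2 or 3 of low IL-7 (up to 0.103), and the Aurka call without any 1 array other than replicate 1 of high IL-7 (up to 0.198). Cdca8, the gene of borealin, read 2402, 3812 and 4116 units with high IL-7, 4169, 4384 and 4540 with low IL-7, and 4045, 4174 and 2881 with IRF4. Its 2 low values were on the arrays with a low 18S signal. The Cdca8 difference of 0.38 (SE 0.19) did not pass (limma adjusted p = 0.155), and without these arrays it was 0.14 (adjusted p = 0.12). With a replicate block and only the 2 groups fitted, Cdca8 passed (adjusted p = 0.0298).

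Of the 2 genes that act with the anaphase promoting complex, the ubiquitin ligase that triggers chromosome separation, Cdc20 rose by 0.33 (SE 0.06). It read 4767, 5080 and 5076 units with high IL-7, 5747, 6553 and 6466 with low IL-7, and 4972, 5196 and 4879 with IRF4. Its low IL-7 arrays lay above the other 6, but the call was lost with its second probe set (0.09). Ube2c, the ubiquitin-conjugating enzyme of that complex, read 6027, 4116 and 4851 units with high IL-7, 6385, 6291 and 6065 with low IL-7, and 5056, 5484 and 6362 with IRF4. The high IL-7 values were widely spread, and the difference of 0.34 just missed the threshold (limma adjusted p = 0.0551). Without the 2 arrays of low 18S signal Ube2c passed (0.48, adjusted p = 0.00133), as it did with the replicate block and only the 2 groups fitted (adjusted p = 0.0153). It also passed without replicate 1 of high IL-7 (0.0044) or without replicate 1 or 3 of IRF4 (0.0461 and 0.0456).

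**Figure D3:**
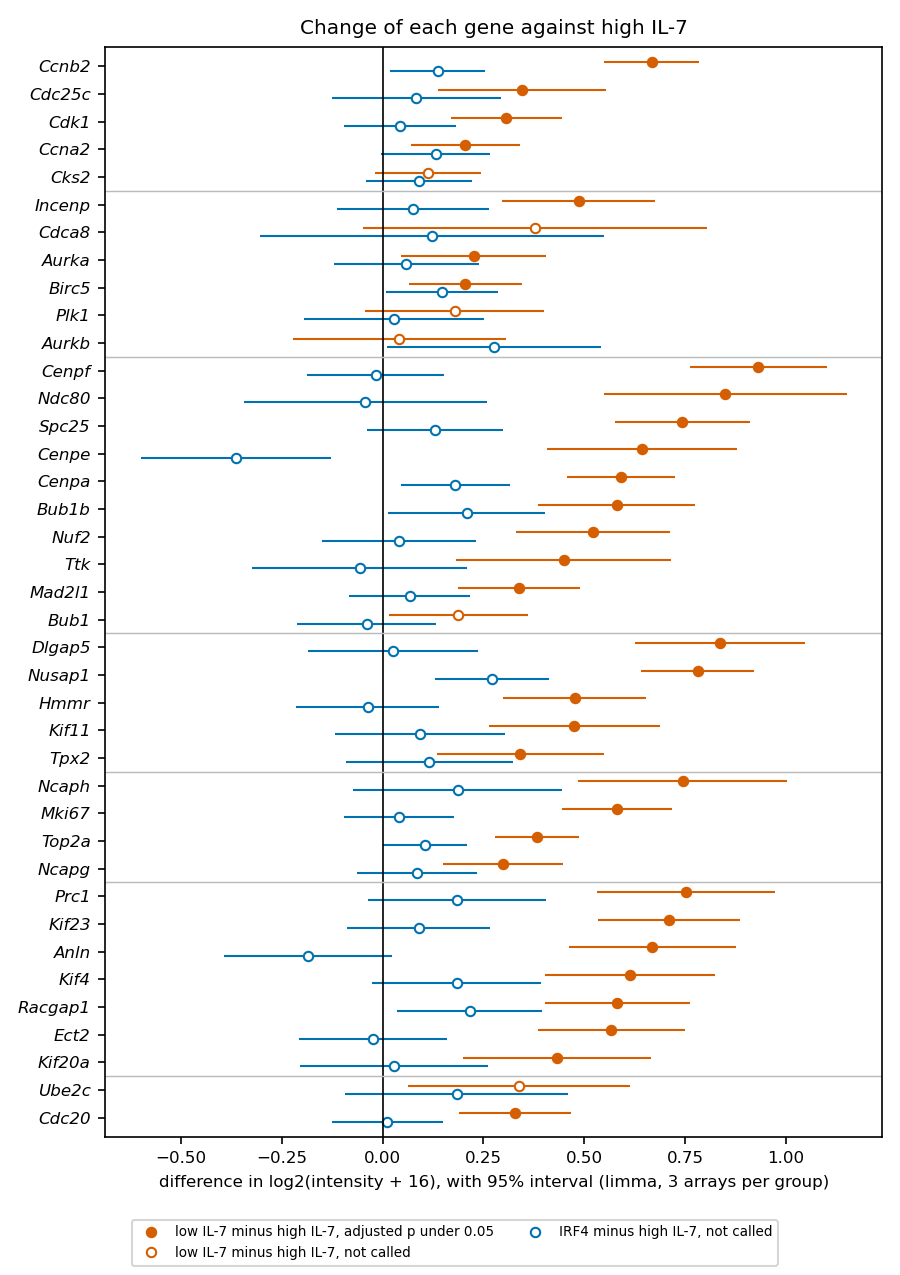
Difference in log2(intensity + 16) from the shared high IL-7 arrays for each gene, for low IL-7 (orange) and IRF4 (blue), with 95% intervals from limma (3 arrays per group). Filled points passed an adjusted p of 0.05. The orange points run from 0.04 to 0.93 and 33 of the 39 are filled, while no blue point is filled.

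With IRF4 put back in high IL-7, no mitosis gene passed the test in either direction in limma, where 1.89% of all tested genes rose and 0.951% fell. At an unadjusted limma p under 0.05 there were 9 of the 39 genes, beside 1933 of all 12828 tested genes. Array weights raised the count of calls over all genes to 1613 higher and 1711 lower. Under that setting 13 mitosis genes were called higher and 2 lower. The median log2 difference (IRF4 minus high IL-7) was 0.09, and 31 of the 39 differences were above 0, as were 47.7% of all tested genes. All 3 IRF4 arrays lay above the high IL-7 arrays in 8 genes (10% of all tested genes) and below them in 1 (11%). The 95% upper limits had a median of 0.26 and reached 0.55 at most, in Cdca8, and 27 of the 39 lay below 0.3. Rises of the size seen for Cenpf in low IL-7, the largest of the list, were thus outside every interval. Only the limits of Cdca8 and Aurkb (0.54) exceeded 0.48, the median rise in low IL-7. Some smaller rises in low IL-7 lay inside the gene's own interval, such as 0.34 in Ube2c (upper limit 0.46).

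The gene nearest the threshold was Nusap1, higher by 0.27 with IRF4 (limma adjusted p = 0.0506). It passed once a replicate block was added (adjusted p = 0.0349) or without replicate 1 of high IL-7 (0.0211). Aurkb was higher by 0.28 and its IRF4 arrays lay above all high IL-7 arrays, but it did not pass (limma adjusted p = 0.313). Cenpe, the kinetochore motor that carries chromosomes to the spindle middle, read 1285, 1363 and 1222 units with high IL-7, 1900, 1960 and 2222 with low IL-7, and 1146, 903 and 959 with IRF4. It was the 1 gene whose IRF4 arrays all lay below the high IL-7 arrays, by 0.36 (limma adjusted p = 0.119, and 0.0349 without replicate 1 of IRF4), whereas in low IL-7 it rose by 0.64.

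Whether the low IL-7 and IRF4 arrays differ was tested directly, as low IL-7 minus IRF4, which does not use the shared high IL-7 levels. Of the 39 genes 29 were higher in low IL-7 and none lower, against 17.7% and 18.6% of all tested genes. The median difference was 0.40, a fold of 1.32, and 38 differences were above 0, as were 49.9% of all tested genes. In 33 genes the low IL-7 arrays lay above all IRF4 arrays (23.6% of all tested genes). Cenpe differed most, by 1.01 (SE 0.11, limma adjusted p = 4.79e-05), a fold of 2.01, followed by Cenpf (0.95), Ndc80 (0.89) and Anln (0.85). Anln read 1652, 1878 and 1920 units with high IL-7, 2745, 2796 and 3151 with low IL-7, and 1725, 1590 and 1471 with IRF4. All 10 kinetochore and checkpoint genes and all 7 cytokinesis genes passed in this comparison, although not every call held in the alternatives. Bub1 (0.23) had a limma adjusted p of 0.0424, lost without any 1 array other than replicate 1 of high IL-7 and replicate 2 of low IL-7 (up to 0.107). Kif20a was lost without replicate 3 of low IL-7 (0.0547) and with median scaling. Median scaling also lost Bub1b (0.0531) and Mad2l1 (0.0599). Racgap1 was lost with the mean of all probe sets and with its second probe set (up to 0.128), and Ttk with its second probe set (0.0526). Ncapg (0.21, adjusted p = 0.0305) was lost when replicate 2 of IRF4 or any 1 low IL-7 array was left out (up to 0.115).

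Of the 6 kinase and passenger genes only Incenp (0.41) passed against IRF4, and of the 5 cyclin and CDK genes Ccnb2 (0.53) and Cdk1 (0.26) did. Incenp did not pass with its second probe set (limma adjusted p = 0.629), nor did Cdk1 with median scaling (0.0966). Aurkb was the 1 gene below 0, at -0.23 (SE 0.12, limma adjusted p = 0.154). In the main fit, those that did not pass were Aurka, Aurkb, Birc5, Ccna2, Cdc25c, Cdca8, Cks2, Plk1, Tpx2 and Ube2c. Of these, Cdc25c passed without replicate 1 of high IL-7 (0.0382) and Tpx2 without replicate 2 of low IL-7 (0.046). All 10 belong to the cyclin, kinase and passenger, spindle or ubiquitin groups.

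The other probe sets of the same genes gave a further reading of these RNAs, though on the same arrays. Of 44 other probe sets, for 27 of the genes, 41 had the same sign as the main one in low against high IL-7. Of the 37 above the filter 35 did, and 19 passed as higher and none as lower, adjusted over all probe sets. Shares over all probe sets are not given here. Among all tested genes, each read from 1 probe set, 52.7% lay above 0, 17.8% rose and 19.6% fell. The dimmest could not be read: a Top2a probe set at a mean of 99.7 units differed by 0.00274. Among brighter ones, a Top2a probe set at 880 units rose by 0.58 in low IL-7 and a Hmmr probe set at 329 units by 0.73. In contrast, the second probe sets of Cdc20 (0.09), Ncapg (0.18), Incenp, Hmmr and Cdc25c did not pass.

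Other genes of mitosis were read from a longer list. Of 71 further tested genes, among them condensins, centromere proteins and kinesins, 40 rose in low IL-7 and none fell, with a median of 0.31, beside 17.8% and 19.6% of all tested genes. Cdc25b, a phosphatase that starts CDK1 activation, rose by 1.44 (SE 0.09, limma adjusted p = 1.19e-06). Ckap2l, a spindle protein, rose by 1.02, and Aspm, which works at spindle poles, by 0.86. Of the 12 subunits of the anaphase promoting complex, whose levels are known to change little through the cycle, Anapc13 rose by 0.23 and Cdc23 (-0.39) and Cdc26 (-0.37) fell. The other 3 Cdc26 probe sets differed by -0.03 to 0.08.

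With IRF4, 1 of the 71 further mitosis genes rose and 1 fell, shares near those of all tested genes (1.89% and 0.951%). Stmn1, which disassembles microtubules, rose by 0.20 (limma adjusted p = 0.0399), and Pttg1, the gene of securin, which holds sister chromatids together until anaphase, fell by 0.59 (limma adjusted p = 0.037). Both calls were lost with the replicate block (adjusted p = 0.0648 and 0.0539) and, for each, when any of several single arrays was left out: for Stmn1 each high IL-7 array, replicate 2 of low IL-7 and replicates 2 and 3 of IRF4 (up to 0.161), and for Pttg1 each low IL-7 array and replicates 2 and 3 of the other groups (up to 0.154). A second Pttg1 probe set fell by 0.58 (adjusted p = 0.012 over all probe sets).

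**Figure D4:**
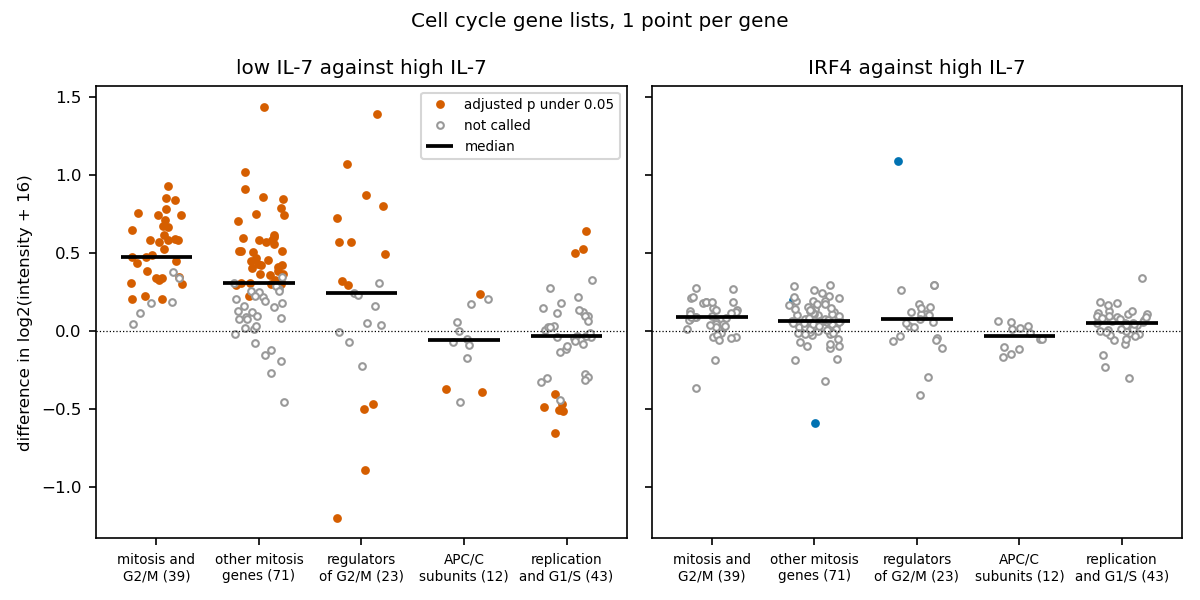
Difference in log2(intensity + 16) against high IL-7 for low IL-7 (left) and IRF4 (right), 1 point per gene in 5 lists, with the number of tested genes in brackets and the median as a bar. Filled points passed an adjusted p of 0.05. In low IL-7 the medians were 0.48 and 0.31 in the mitosis lists and -0.04 in replication and G1/S, and with IRF4 all medians lay between -0.03 and 0.09.

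Genes of DNA replication and the G1/S step, act earlier in the cycle. Of 43 tested genes 3 rose in low IL-7, Prim2 (0.64), Cdc7 (0.53) and Rrm2 (0.50), and 6 fell (17.8% and 19.6% of all tested genes). Among those that fell were Orc1 (-0.66), the origin recognition subunit, and the replication factor Mcm10 (-0.49). Neither passed with its second probe set (-0.10 and -0.07, limma adjusted p = 0.452 and 0.622). Rrm2 kept its call in all 22 alternatives, but a dimmer Rrm2 probe set averaged 11.63 with high IL-7 and 11.70 with low IL-7 (log2). The median of the 43 genes was -0.04, near that of all tested genes. The 3 low IL-7 arrays disagreed: the list mean was 11.40 in replicate 1 and 11.03 and 11.11 in replicates 2 and 3 (log2), against 11.20 to 11.26 with high IL-7. Without low IL-7 replicate 1, 16 of the 43 fell, and without replicate 2 or replicate 3, 3 did. In the mitosis genes low IL-7 replicate 1 was also the highest, but all 3 low IL-7 means lay between 11.72 and 11.84.

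**Figure D5:**
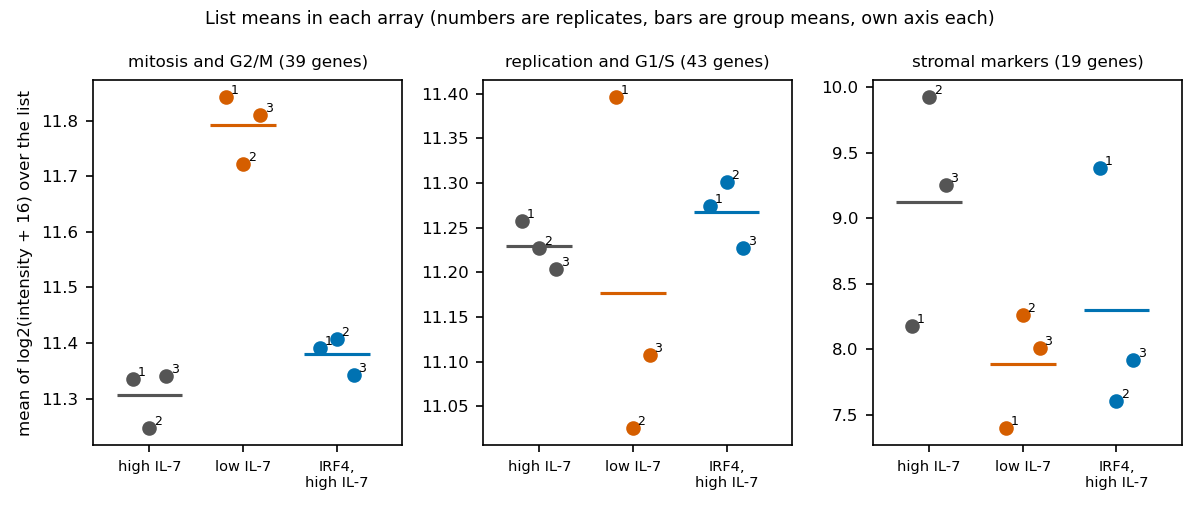
Mean of log2(intensity + 16) over the genes of a list in each array, for mitosis and G2/M genes, replication and G1/S genes and stromal markers (points with replicate numbers, bars for group means, a separate axis in each panel). Mitosis means lie at 11.72 to 11.84 in low IL-7 and at 11.25 to 11.41 in all other arrays, replication means are split in low IL-7 between replicate 1 (11.40) and the other 2, and stromal means range from 7.39 to 9.93.

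The transcription factors and pocket proteins that act on G2/M promoters were read from a further list. Of 23 tested genes 10 rose and 4 fell in low IL-7, where 17.8% of all tested genes rose and 19.6% fell, so the share that fell was near that of all genes. Among the pocket proteins, Rbl2, the gene of p130, rose by 0.87 (SE 0.09) and also with its second probe set (0.51), and Rb1 rose by 1.07 (SE 0.12). Rbl1, the gene of p107, rose by 0.57 with its brightest probe set, but its second probe set differed by -0.17. The E2F partner Tfdp2 rose by 1.39 (SE 0.16), and Tfdp1 fell by 0.50.

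The activator E2f2 rose by 0.72 and the repressors E2f7 and E2f8 by 0.80 and 0.57, while E2f3 fell by 0.47. The rise of E2f8 was not seen in its second probe set (0.04). E2f4, the repressive partner of p130, fell by 1.20, but with a large error (SE 0.38, limma adjusted p = 0.0314), and Mybl2, the gene of B-Myb, fell by 0.89 (SE 0.25), while its second probe set differed by -0.23 without passing. The E2f4 call was lost without replicate 1 of high IL-7 (adjusted p = 0.0674) or any low IL-7 array (up to 0.0872), and that of Mybl2 without replicate 1 of high IL-7 (0.0523) or replicate 2 or 3 of low IL-7 (up to 0.0715). Foxm1 did not pass (0.31, SE 0.22, limma adjusted p = 0.323). Lin9, a subunit of MuvB, rose by 0.50, but did not pass with its second probe set (0.17, limma adjusted p = 0.338). Rbbp4, another MuvB subunit, rose by 0.32 with 1 of its 4 probe sets at -0.24. Nfyb, a subunit of NF-Y, rose by 0.30. The Nfyb call was lost with the replicate block (limma adjusted p = 0.0533) and without replicate 1 or 3 of high or of low IL-7 (up to 0.122) or replicate 2 of IRF4 (0.051). With IRF4, Rb1 alone of the 23 passed, with a rise of 1.09 (SE 0.12), and none fell. The other Rb1 probe set, at a mean of 30.9 units, was under the filter.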

How the data were processed

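Total RNA was labelled and hybridised to Affymetrix mouse arrays, per the labels' protocols. The authors deposited 1 table of linear intensity values for 45101 probe sets and 9 arrays; summarisation, scaling and filtering are not given in the sources used here, and no detection p-values were used. Array number limits the precision.

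Groups came from the titles. Probe sets with 1 gene symbol (34945) in the supplied annotation and a mean at or above the 40th percentile (108.0 units) were kept, and a gene was read from its brightest probe set. Group means of log2(intensity + 16) were fitted over all 9 arrays in limma 3.58.1 (R 4.3.3) with a variance trend. The code was tested on simulated data. Genes are named for their role in the mitosis list, or in the other lists as the largest or most certain changes. The members and lists were chosen with earlier results of these data known. Replicates correlated with r of 0.976 to 0.995. The titles give a replicate number but state no pairing, and the main fit did not use the number. Between high and low IL-7 samples, deviations from the group means correlated at 0.286 to 0.549 for the same number. For different numbers the correlations were -0.520 to 0.342, so the ranges overlapped. The alternatives were other pseudocounts (1 and 64), filters, scalings, probe set rules, array weights, the replicate block and leaving out arrays. Motifs were searched in Python 3.11.15 and figures drawn with matplotlib 3.10.9.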

Additional observations from a re-analysis of the deposited data

How the results depend on the processing

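Counts of mitosis genes called higher in low IL-7 stayed at 27 to 36 of 39 against high IL-7 (28 to 34 leaving out 1 array) and at 22 to 33 against IRF4 (26 to 30 leaving out 1 array), lowest with the second probe set (27) and with median scaling (22). Over all genes, the counts called higher were 2287 and 2275 in the main fit, and 4147 and 3720 with array weights. With the second probe set 1755 were called higher against high IL-7, and with median scaling 1739 against IRF4. Median scaling also moved the median difference of all genes against IRF4 from -7.62e-04 to -0.069. With IRF4 against high IL-7 the count of 0 mitosis genes higher became 1 with quantile normalization, 1 with the replicate block, 1 without both arrays of low 18S signal, 13 with array weights and 0 to 1 leaving out 1 array. The count of 0 mitosis genes lower became 2 with array weights and 0 to 1 leaving out 1 array. Low IL-7 against IRF4 had 1 lower mitosis gene with array weights. In that comparison this setting called 3720 of all genes higher and 4089 lower, against 2275 and 2391 in the main fit. In IRF4 against high IL-7 it called 1613 of all genes higher and 1711 lower, against 243 and 122. The calls for Aurka against high IL-7 and Bub1 against IRF4 were lost in 12 and 14 of 22 alternatives, Birc5, Ccna2 and Cdc25c against high IL-7 in 7, 5 and 3, and Ncapg against IRF4 in 7.

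The replicate block over all 9 arrays left 33 mitosis genes higher in low IL-7 against high IL-7 and 29 against IRF4, and with only the 2 groups compared 35 and 27. Apart from the changes given beside the results, it changed no other call of a mitosis gene against high IL-7. Same-number correlations of the IRF4 samples were -0.380 to -0.163 with high IL-7 and -0.148 to -0.0129 with low IL-7.

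Signs changed in small differences, the cause of which was not tested. In low against high IL-7, Aurkb was -0.0010 with median scaling, -0.12 with array weights and -0.079 to 0.11 leaving out 1 array, and Rbbp4 and Rbl1 were -0.24 and -0.17 with the second probe set. In IRF4 against high IL-7, median scaling gave Cenpf 0.012 and Ect2 0.0052. The mean of all probe sets gave Cdc20 -4.95e-04, Incenp -0.010, Kif23 -0.011, Ncapg -0.026, Top2a -0.13 and Ttk 0.012. The second probe set gave Cdc20 -0.070, Cenpa -0.20, Hmmr 0.018, Ncapg -0.14, Top2a -0.31 and Ttk 0.081. Array weights gave Cenpf 0.0076, Kif11 -0.0021 and Ndc80 0.016, and leaving out both arrays of low 18S signal gave Cenpf 0.052 and Ndc80 0.074. Leaving out 1 array gave Aurka -0.0074 to 0.11, Cdc20 -0.018 to 0.032, Cdca8 -0.12 to 0.29, Cdk1 -0.018 to 0.075, Cenpf -0.048 to 0.040, Ect2 -0.076 to 0.037, Hmmr -0.073 to 0.012, Kif20a -0.019 to 0.064, Ndc80 -0.094 to 0.020 and Plk1 -0.070 to 0.13. In low IL-7 against IRF4, median scaling gave Birc5 -0.014 and Cks2 -0.049, the mean of all probe sets gave Cks2 -0.023, its second probe set -0.068 and leaving out 1 array -0.033 to 0.065.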
